A study of Mus musculus with 8 samples.

Results

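The AP-1 family was examined in neutrophils through 10 genes, namely the Fos genes Fos, Fosb, Fosl1 and Fosl2, the Jun genes Jun, Junb and Jund, and Jdp2, Batf and the small Maf gene Maff. Members were taken as every probe whose RefSeq transcript, version dropped, belongs to one of these genes, which gave 11 of the 55681 probes on the array. Each member had 1 probe except Fosl2, which had a pair. The cells were the Ly6G+ fraction, meaning neutrophils by that surface marker, collected with magnetic beads from the marrow of tibias and femurs. The mice had a C57BL/6 background and were either WT or ATF3 KO, and total RNA of 4 samples per genotype was labelled with Cy3 and read on 1 single-colour Agilent array each. No treatment, age or sex is given for either group, the labels do not say how Atf3 was deleted, and nothing in them says that the 4 samples came from separate mice, so the p-values measure only the spread between these samples. The design text has RNA isolated at once after the sort, whereas the description of 7 of the 8 samples speaks of a culture in methylcellulose with 4-OHT, and this conflict was not resolved.

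AP-1 is a dimer of basic leucine zipper proteins that binds DNA at the site TGACTCA and, in other pairings, at the related site TGACGTCA. Jun proteins pair with one another or with Fos proteins, while Fos proteins need a partner from outside their own group. JDP2, BATF and small Maf proteins lack the activation domains of Fos and Jun and can take their place in the dimer, and ATF3, the product of the deleted gene, is itself a partner of Jun proteins. Fos and Jun genes are switched on within minutes by MAP kinase signalling, also by the stress of handling cells, and in myeloid cells AP-1 acts on genes of inflammation and differentiation.

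Array-wide values set the scale for the members. The 75th percentile of the processed signal, by which each array was scaled, lay from 151 to 216 on the WT and from 113 to 161 on the ATF3 KO arrays (two-sided exact permutation p = 0.0857), with the lowest on ATF3 KO replicate 4. All 8 arrays were on 1 slide, where the row and the genotype cannot be told apart. No spot was saturated, and arrays correlated with each other at 0.981 or more across genes. Of the 15 neutrophil markers listed, 14 had a probe matched by transcript, and all 14 were above background on all 8 arrays. The exception was Ly6g itself, which was not measured here. Markers of other cells were also present: the summed levels for the B lineage, dendritic cells and stroma did not overlap between the groups, though single dendritic cell markers differed in sign. The probe of Atf3 read 0.69, 0.82, 0.75 and 0.65 on the WT arrays and 1.53, 1.00, 1.41 and 1.02 on the ATF3 KO arrays (log2 signal relative to the 75th percentile), so it was not lower where the gene is deleted. The sources used here do not say whether the deletion covers this probe, so it does not check the genotype labels, and directions below are between libraries labelled ATF3 KO and WT.

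The promoters of Fos, Junb and Jun are shown because Fos and Junb had the lowest p-values of the family and Jun, the best known partner of Fos, is the member to set against them. Each is the 250 bases before the gene's start from RefSeq (GRCm38.p6, 5′ to 3′ on the gene's strand). The capitals mark matches to any of 4 motifs searched on both strands, which were TGACTCA, TGACGTCA, TGACATCA (known from the Jun promoter) and TGACGT, the last being contained in TGACGTCA. Fos lies at chr12:85473640-85473889 (plus strand), Junb at chr8:84978749-84978998 (minus strand) and Jun at chr4:95052223-95052472 (minus strand).
Fos: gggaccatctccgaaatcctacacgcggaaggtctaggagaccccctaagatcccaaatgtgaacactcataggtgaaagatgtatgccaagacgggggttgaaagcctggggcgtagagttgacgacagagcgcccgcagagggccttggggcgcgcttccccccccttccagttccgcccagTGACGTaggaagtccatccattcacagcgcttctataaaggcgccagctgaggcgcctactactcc
Junb: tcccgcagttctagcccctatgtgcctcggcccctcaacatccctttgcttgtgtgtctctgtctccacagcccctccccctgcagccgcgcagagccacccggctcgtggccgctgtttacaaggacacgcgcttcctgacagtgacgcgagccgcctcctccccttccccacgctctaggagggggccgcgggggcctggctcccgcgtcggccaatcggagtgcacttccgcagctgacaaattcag
Jun: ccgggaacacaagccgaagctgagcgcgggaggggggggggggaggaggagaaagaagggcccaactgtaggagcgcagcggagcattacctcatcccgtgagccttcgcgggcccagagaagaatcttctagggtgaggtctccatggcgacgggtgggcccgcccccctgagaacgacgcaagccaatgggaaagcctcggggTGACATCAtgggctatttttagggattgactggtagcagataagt
The Fos window held TGACGT from base 66 to base 61 before the start, the Jun window held TGACATCA from base 45 to base 38, and the Junb window held none of the 4. Over 32851 promoter windows of the same length, TGACGT was found in 6.47%, TGACATCA in 2.93%, TGACTCA in 4.46% and TGACGTCA in 1.55%. Windows were given for 9 of the 10 members, Fosl1 having none. None of the 13 windows of these 9 genes held TGACTCA, while TGACGTCA was found in 1 of the 3 windows of Maff. TGACGT was also present in a window of Jdp2, of Batf and of Maff, and TGACATCA in another window of Maff. Fos, Jdp2 and Batf are neighbours on chromosome 12, with 2 annotated genes between Fos and Jdp2 and 1 between Jdp2 and Batf. Junb and Jund share chromosome 8, with 327 genes between them.

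None of the 8 members tested passed the threshold between ATF3 KO and WT (limma, adjusted p under 0.05 over 21247 genes), against 0.447% of all genes tested (0.367% higher and 0.08% lower). Here and below, all genes include array targets that matched no RefSeq gene. At an unadjusted p under 0.05, 2 of the 8 were lower in ATF3 KO, Fos and Junb, against 14.5% of all genes, and 0 were higher, against 9.38% (23.9% in either direction). Below 0 were 6 of the 8, against 65.5% of all genes, and below the median of all genes 3, against 50%. The largest differences were those of Fos, at 0.706 times the WT signal, and Junb, at 0.742 times. Batf came next at 0.827 times, and the remaining 5 lay between 0.932 and 1.01 times. The median difference of the 8 was −0.062 on the log2 scale, and that of all genes was −0.11, so the members' median stood 0.046 above it. That sign was not stable: it was −0.097 with normexp, −0.046 with no filter and −0.0090 without ATF3 KO replicate 4. A difference of 0 in the main setting lies 0.11 above the typical gene, and the values relative to the median of all genes are given beside the main ones where they matter. That offset depends on the scaling, since the median of all genes was −0.18 with median scaling and 0.044 with the percentile over probes above background on all arrays. Fosl1 and Maff did not pass the filter of 4 arrays above background and were not part of the test.

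**Figure D1:**
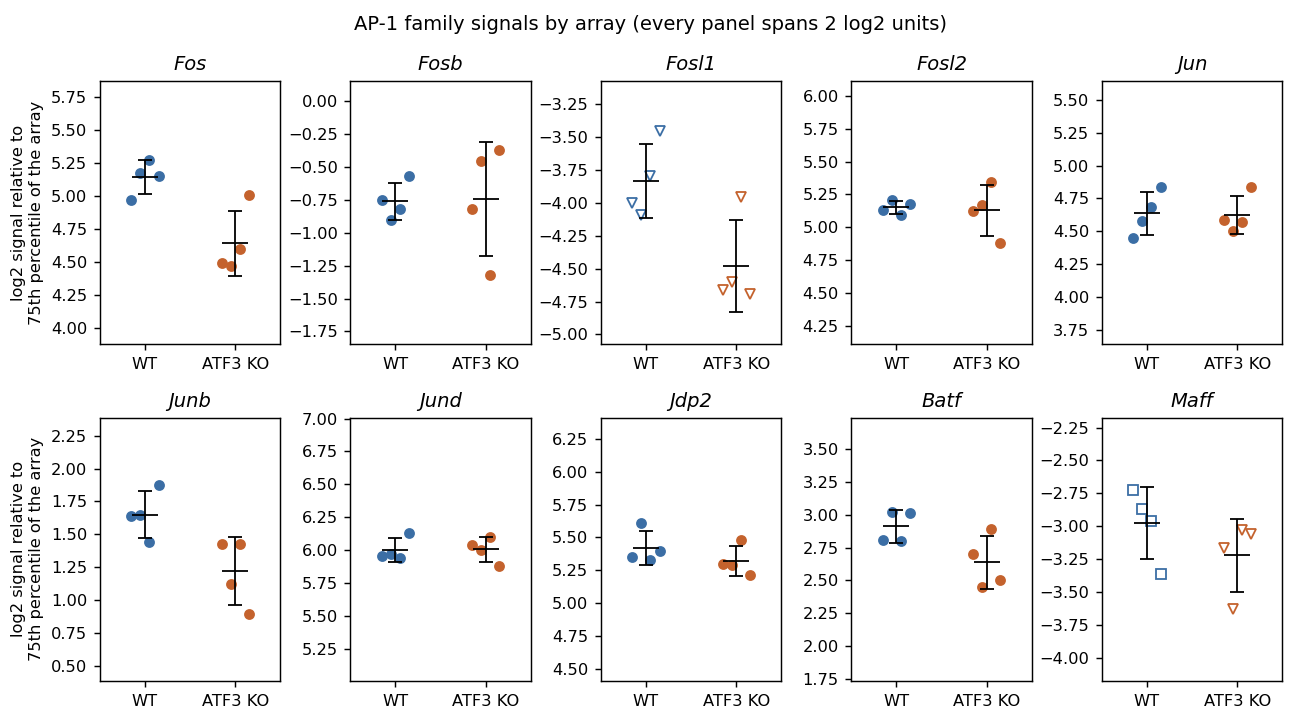
Log2 signal relative to the 75th percentile of the array (y axis) for each of the 10 members on 4 WT arrays (blue) and 4 ATF3 KO arrays (orange), with the mean and SD as black bars. Filled circles mark groups above background on all 4 arrays, open squares the WT group of Maff (above background on 3 of 4), and open triangles groups above background on no array. Every ATF3 KO value of Junb lies under every WT value, and 3 of the 4 ATF3 KO values of Fos lie under all WT values, while Jun, Jund and Fosl2 overlap.

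Fos, the founding member of the family and an early response gene of stimulated cells, had the smallest p of the 8. Its log2 signal relative to the 75th percentile was 4.97, 5.18, 5.28 and 5.15 on WT replicates 1 to 4 and 4.49, 4.47, 4.60 and 5.004 on ATF3 KO replicates 1 to 4. ATF3 KO replicate 4 lay within the WT values, just above the lowest of them, and the other 3 lay below all 4. The WT arrays averaged 5.14 ± 0.13 and the ATF3 KO arrays 4.64 ± 0.25 (SD, n = 4 each). The difference was −0.50 (SE 0.14, 95% interval −0.81 to −0.19), which is a signal 29.4% lower, and −0.39 relative to the median of all genes. It did not pass over all genes (limma adjusted p = 0.122, unadjusted p = 0.00486), and the exact permutation p was 0.0571, where the smallest that 4 against 4 allows is 0.0286. The call was made with normexp background correction alone of 21 alternative settings (−0.58, limma adjusted p = 0.0289), and the adjusted p ran up to 0.316 over the rest. Of the RefSeq-named genes, those whose pattern over the 8 arrays was nearest to that of Fos were Kctd12b, the phospholipase C gene Plcd1 and Gas6, a ligand of TAM receptors, with root mean square differences of 0.095, 0.105 and 0.110 on the log2 scale after centring, among 12544 genes compared.

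The Fos probe was printed on 10 spots per array, and no spot of it was left out, so the spread between spots of the same array can be read. These spots share the same labelled RNA, so error that arises between arrays is not part of that spread. The coefficient of variation over the 10 spots ran from 2.78% to 4.55%, and the median SD was 0.046 on the log2 scale. The SD between arrays was larger, at 0.13 in WT and 0.25 in ATF3 KO. Before scaling between arrays, the mean processed signal of the 10 spots was 6748, 7803, 6376 and 5348 on the WT arrays and 3620, 3415, 3348 and 3613 on the ATF3 KO arrays. On that unscaled signal the ATF3 KO arrays lay below all WT arrays for Fos, but also for Jun, Junb, Jdp2 and Batf, 5 of the 8 members tested, and for 26.3% of all genes, with the 75th percentile of ATF3 KO replicates 3 and 4 below that of every WT array. After scaling, the array that overlapped was ATF3 KO replicate 4, whose 75th percentile was the lowest of the 8. Among the 6 ways of scaling or correcting the signal that were compared, the Fos groups did not overlap after median scaling or normexp correction and overlapped with the other 4.

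**Figure D2:**
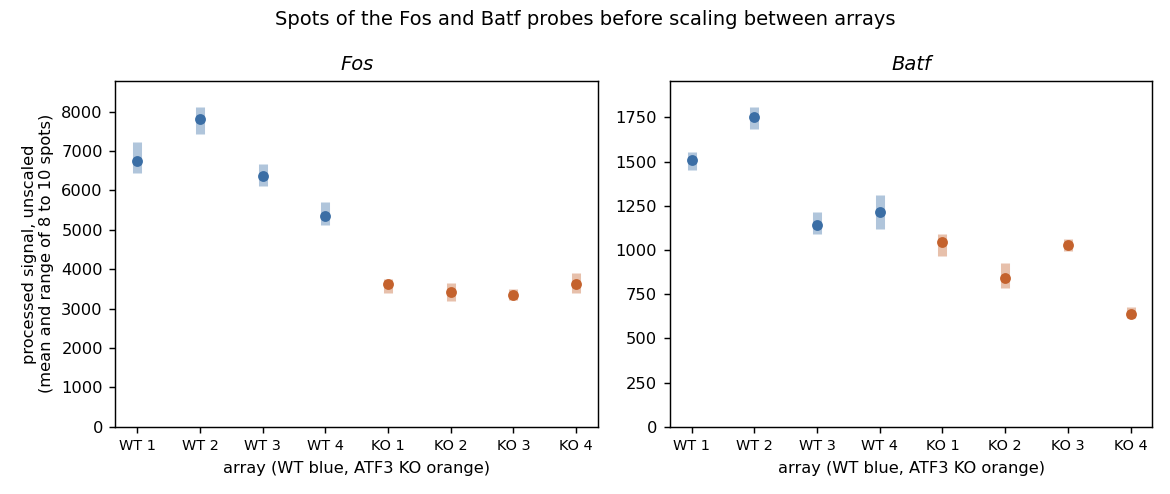
Unscaled processed signal (y axis, from 0) of the Fos and Batf probes on each array, WT in blue and ATF3 KO in orange. Points are means and bars the range over the spots of the probe, 10 per array, or 8 for Batf on WT replicate 1 and ATF3 KO replicate 1. The spread within an array is small beside the differences between arrays, and before scaling the 4 ATF3 KO arrays lie under the 4 WT arrays for both genes, as they do for 26.3% of all genes.

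The other Fos genes gave no difference past the threshold. Fosb, which like Fos is an early response gene, had log2 signals of −0.75, −0.90, −0.82 and −0.57 in WT and −0.82, −0.46, −1.32 and −0.37 in ATF3 KO. The ATF3 KO arrays were spread on both sides of the WT arrays, with an SD of 0.43 against 0.14. The difference was 0.019 (SE 0.20, 95% interval −0.43 to 0.46, limma adjusted p = 0.958), an interval from 0.744 to 1.38 times the WT signal. Of all genes tested, 79.7% had a smaller SD within groups than Fosb.

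Fosl2, which encodes FRA2, was read by a bright and a dim probe. The bright probe gave 5.13, 5.21, 5.09 and 5.17 in WT and 5.12, 5.17, 5.35 and 4.88 in ATF3 KO. The WT values were tight, and ATF3 KO replicates 3 and 4 lay above and below all of them. Its difference was −0.022 (SE 0.11, 95% interval −0.28 to 0.23, limma adjusted p = 0.909). The dim probe averaged −0.97 ± 0.13 on WT and −0.85 ± 0.27 on ATF3 KO arrays (SD, n = 4 each), a difference of 0.12 (limma adjusted p = 0.709 in a fit over every probe). The probes thus differed in sign, with neither past the threshold. Fosl1, which encodes FRA1, was above background on 0 of the 8 arrays, so only a bound exists for it in both groups and no fold is given.

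Jun, the partner of Fos in the classical AP-1 dimer, gave 4.45, 4.58, 4.69 and 4.83 in WT and 4.59, 4.50, 4.57 and 4.84 in ATF3 KO. The groups covered the same range. The difference was −0.013 (SE 0.12, limma adjusted p = 0.950), and the 95% interval ran from 0.824 to 1.19 times the WT signal, so a signal at 0.706 times WT, the estimate for Fos, lay outside it. Genes with the pattern nearest to that of Jun were Zfp947, the actin-binding gene Ablim3 and the collagen gene Col4a6, with root mean square differences of 0.051, 0.057 and 0.062.

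Junb, whose protein is a weaker activator than c-Jun and limits the growth of myeloid cells, was the member whose groups were apart. Its log2 signal was 1.64, 1.65, 1.44 and 1.87 in WT and 1.43, 1.12, 1.43 and 0.90 in ATF3 KO. All 4 ATF3 KO arrays lay under all 4 WT arrays, but the gap between the lowest WT array and the highest ATF3 KO arrays was smaller than the SD of either group. The averages were 1.65 ± 0.18 for WT and 1.22 ± 0.26 for ATF3 KO (SD, n = 4 each), a difference of −0.43 (SE 0.15, 95% interval −0.76 to −0.097) and of −0.32 relative to the median of all genes. The limma adjusted p was 0.156, with a range from 0.0838 to 0.361 over the alternatives, and the exact permutation p was 0.0286, the smallest that 4 against 4 allows. A group wholly under the other was seen in 1 of the 8 members, against 10.9% of all genes tested in that direction, and in the other direction in 0, against 4.13% (15.1% in either). Junb overlapped between groups with quantile normalization, median scaling, the percentile over probes above background on all arrays and the deposited log2 table.

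Jund, the Jun gene that many resting cells express, was the steadiest member. It gave 5.95, 5.97, 5.94 and 6.13 in WT and 6.04, 6.00, 6.10 and 5.88 in ATF3 KO, a difference of 0.0065 (SE 0.096, limma adjusted p = 0.970). The 95% interval ran from 0.865 to 1.17 times the WT signal. A smaller SD within groups was found for 6.25% of the genes tested.

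**Figure D3:**
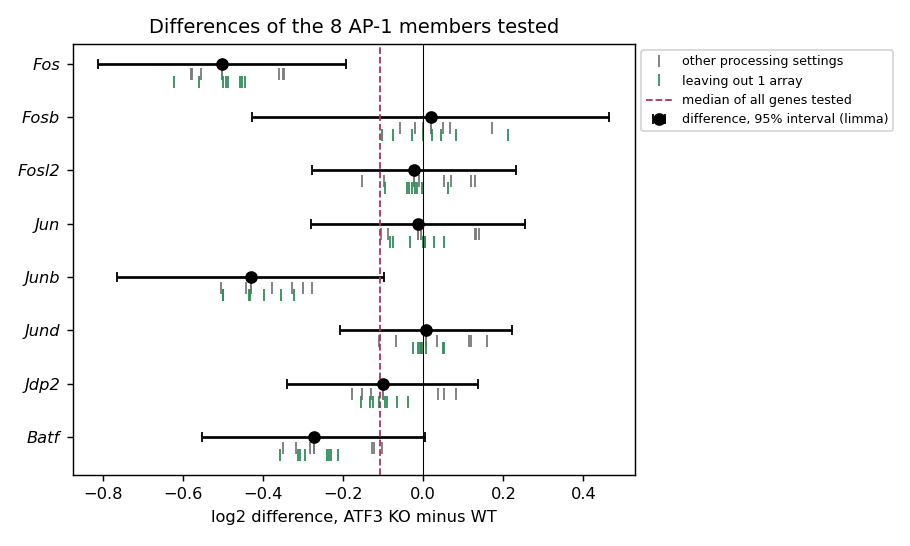
Log2 difference, ATF3 KO minus WT (x axis), of the 8 members tested, with the 95% interval from limma as bars. Grey ticks are the values under the other processing settings, green ticks the values with 1 array left out, and the dashed line the median of all genes tested in the main setting (−0.11). That median differs in the other settings, so the ticks are not to be read against the line. Fos, Junb and Batf stay below 0 in every setting shown, while the other 5 lie close to 0 and change sign in some.

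Jdp2 and Batf encode basic leucine zipper proteins that can pair with Jun in the place of Fos. Jdp2 gave 5.35, 5.61, 5.33 and 5.40 in WT and 5.30, 5.29, 5.48 and 5.21 in ATF3 KO. Replicates 1, 2 and 4 of ATF3 KO lay just under the WT values and replicate 3 among them. The difference was −0.10 (SE 0.11, 95% interval −0.34 to 0.14, limma adjusted p = 0.535), which is 0.0069 above the median of all genes.

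Batf, known for its part in lymphocytes and dendritic cells, gave 2.81, 3.02, 2.80 and 3.01 in WT and 2.70, 2.45, 2.89 and 2.51 in ATF3 KO. ATF3 KO replicate 3 lay among the WT arrays and the other 3 below them. WT averaged 2.91 ± 0.12 and ATF3 KO 2.64 ± 0.20 (SD, n = 4 each), a difference of −0.27 (SE 0.12, 95% interval −0.55 to 0.0041, limma adjusted p = 0.213). Relative to the median of all genes it was −0.17. The Batf probe also had 10 spots per array, of which 4 in all were left out as outliers by the scanner software's mark, and their coefficient of variation ran from 2.0% to 4.87%, well under the spread between arrays.

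Maff, a small Maf gene, was close to the background. It was above background on 3 of the 4 WT arrays and on 0 of the 4 ATF3 KO arrays, with log2 signals of −2.72, −2.87, −2.96 and −3.36 in WT and −3.16, −3.63, −3.03 and −3.06 in ATF3 KO. The values overlapped (exact permutation p = 0.286), and since WT replicate 4 was not above background either, no fold is given.

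Within a group the members did not move as a block. On ATF3 KO replicate 4, Fos, Fosb and Jun were at their highest of the 4 ATF3 KO arrays, while Fosl2, Junb, Jund and Jdp2 were at their lowest. By the root mean square difference of the centred patterns over the 8 arrays, Fosl2 and Jund were the nearest pair of members, at 0.084, against medians of 0.22 for both between that gene and all genes. The member nearest to Fos was Batf, at 0.27 against a median of 0.34 to all genes, and that nearest to Junb was also Batf, at 0.14 against 0.29. These distances are centred on the mean of all 8 arrays, so they include the difference between the groups. They are also small for genes that vary little. The ATF3 KO arrays had 4 members at their highest on replicate 3, 3 on replicate 4, 1 on replicate 1 and 0 on replicate 2.

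Levels of marker genes of other cells moved with the same groups. The summed level of the 12 macrophage and monocyte markers measured, of 14 listed, in units of the array's 75th percentile, ran from 366 to 439 in WT and from 298 to 389 in ATF3 KO, with none of them absent from all arrays. For 10 of 11 stroma and endothelium markers the range was 130 to 172 in WT and 71.2 to 122 in ATF3 KO. For 14 B lineage markers it was 71.9 to 96.5 in WT and 126 to 144 in ATF3 KO, and for 12 dendritic cell markers 411 to 537 in WT and 559 to 801 in ATF3 KO, with Xcr1 above background on no array. Siglech made up 74.1% to 82.8% of the dendritic cell sum on every array, and without it the sum ran from 107 to 112 in WT and from 126 to 138 in ATF3 KO. The brightest genes of that remainder were the MHC class II presentation genes H2-Ab1, H2-Eb1 and Cd74, which are not particular to dendritic cells. They averaged 5.37, 4.87 and 4.51 in WT and 5.65, 5.17 and 4.85 in ATF3 KO. At an unadjusted p under 0.05, 6 of 11 dendritic cell markers tested were higher and 3 lower in ATF3 KO. The lower ones were Itgax (−0.51), Batf3 (−0.51) and Zbtb46 (−0.45). By the same measure 10 of 13 B lineage markers were higher and 0 lower. Of 12 macrophage and monocyte markers 0 were higher and 6 lower, and of 10 stroma and endothelium markers 0 and 5. Over all genes 9.38% were higher and 14.5% lower. Within the macrophage and monocyte list, the monocyte genes Ccr2 and Cx3cr1 were not lower. Ccr2 averaged −1.42 in WT and −1.05 in ATF3 KO, and Cx3cr1 averaged 0.38 in both. Limma's adjusted threshold was passed by 1 macrophage or monocyte marker, lower, and by 1 dendritic cell and 1 eosinophil, basophil or mast cell marker, each higher. The 14 neutrophil markers summed to 10717 to 13586 in WT and 12898 to 15491 in ATF3 KO. The sums for erythroid cells, for megakaryocytes, for T and NK cells and for eosinophils, basophils and mast cells overlapped between the groups, with 3 T and NK cell markers above background on no array. Itgb3, lower in ATF3 KO, made up 26.4% to 62.0% of the megakaryocyte sum, while the median of that list stood 0.72 above all genes. At an unadjusted p under 0.05, 5 of 14 neutrophil markers were higher and 0 lower, 2 of 9 megakaryocyte markers higher and 1 lower. For 12 eosinophil, basophil and mast cell markers these counts were 4 and 2, for 7 T and NK cell markers 0 and 2, and for 7 erythroid markers 0 and 0. The part of these cells in the values of Fos, Junb and Batf was not tested, and in RNA of a mixed fraction, fewer cells of a type and less RNA per cell cannot be told apart.

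The genes around the family were read from lists of partners, regulators and targets, and 0 of the genes in these lists passed limma's adjusted threshold. Their counts at an unadjusted p under 0.05 stand against 14.5% of all genes lower and 9.38% higher. Of 7 tested genes among the other BATF and Maf factors, 2 had an unadjusted p under 0.05, both of them lower. Batf3, needed by a class of dendritic cells and a gene close to Atf3 on its chromosome, had the smallest p of the list (−0.51, SE 0.15, limma adjusted p = 0.132). The small Maf genes Mafk (−0.12) and Mafg (−0.063) differed less. Among 12 ATF and CREB genes, Atf6, a sensor of stress in the endoplasmic reticulum, was lower (−0.49, limma adjusted p = 0.0752) and the deleted gene Atf3 higher (0.51, limma adjusted p = 0.121) at an unadjusted p under 0.05, with Atf2 at −0.23 and Creb5 at 0.19. Among 5 genes of the CNC and BACH group, which pair with small Maf proteins, Nfe2l1 was lower (−0.35) and Bach2, a factor of B cells, higher (0.56) by the same measure.

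The kinases, phosphatases and cofactors that act on AP-1 were read in the same way, against the same 14.5% lower and 9.38% higher over all genes. Of 31 genes of the MAP kinase cascades, 4 were lower at an unadjusted p under 0.05 and 0 higher, a share of lower genes below the 14.5% over all genes. They were Map3k4 (−0.30), Rps6ka3 (−0.26), Map3k7 (−0.23) and Map2k5 (−0.22). The median of these 31 genes was −0.023 relative to all genes. Of 9 factors that act at the Fos promoter, 2 were higher and 0 lower, namely the coactivator Crebbp (0.39) and the ETS factor Elk1 (0.33), while Mrtfb was at −0.26 and Elk3 at −0.22. The Elk1 probe was the brightest of the 9, at 10.5 on WT and 10.8 on ATF3 KO arrays. Whether it reads Elk1 alone was not tested. Of 9 phosphatases of MAP kinases, 2 were lower and 0 higher, Dusp6, which acts on ERK (−0.31), and Dusp16, which acts on JNK (−0.22). Of 17 cofactors and factors of AP-1 turnover, Irf4, a partner of BATF, was higher (0.57), and Nfatc2 (−0.49) and Cebpa (−0.36) were lower at an unadjusted p under 0.05.

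The median for known AP-1 targets stood at −0.11 relative to that of all genes. Of 25 tested, 9 had an unadjusted p under 0.05, all of them lower, against 14.5% of all genes lower and 9.38% higher. The smallest p-values were those of the metallothionein gene Mt1 (−0.57, SE 0.12, limma adjusted p = 0.0813), the urokinase gene Plau (−0.42, SE 0.11) and the chemokine genes Ccl4 (−0.64, SE 0.17) and Ccl3 (−0.56, SE 0.15). Mt1 read 4.57, 4.36, 4.82 and 4.70 in WT and 4.02, 3.95, 4.03 and 4.17 in ATF3 KO, with the groups apart. Of 20 other early response genes, 5 were lower by this measure and 2 higher, the higher including the deleted gene Atf3 (0.51). Among the lower were Egr1 at −0.81 (SE 0.18, limma adjusted p = 0.0913) and the nuclear receptor gene Nr4a1 at −0.46. Egr3, counted among the lower, was above background on 4 WT arrays and on 0 ATF3 KO arrays. With each ATF3 KO array set no lower than its lowest signal called above background, Egr3 was 1.51-fold higher in WT. That is not a strict limit. On ATF3 KO replicate 1 this lowest signal was −3.39, while Maff read −3.16 there and was not above background. Egr3 passed the filter through the WT group alone, so its count among the lower rests on that group, and no p-value is given for this fold. Egr1 read 2.62, 2.44, 2.77 and 2.81 in WT and 2.33, 1.77, 1.45 and 1.85 in ATF3 KO, all 4 below the WT arrays, as for Junb and unlike Fos.

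**Figure D4:**
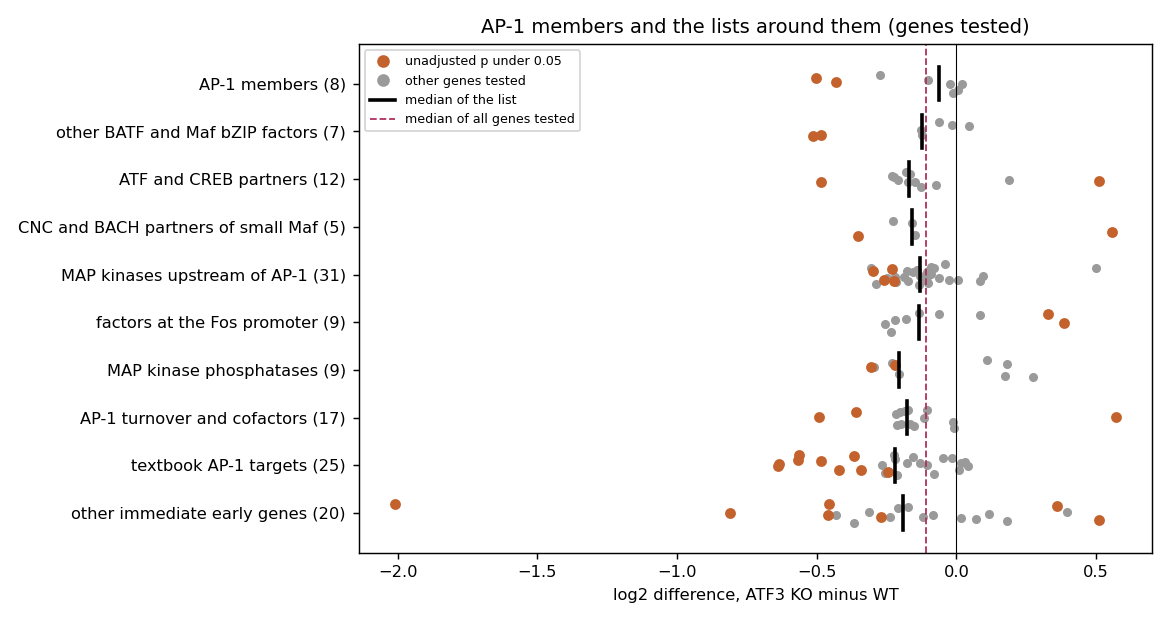
Log2 difference, ATF3 KO minus WT (x axis), of every gene tested in each list (y axis, number of genes in brackets). Orange points have an unadjusted p under 0.05 (limma), black bars are list medians, and the dashed line is the median of all genes tested (−0.11). None of the genes shown passed the adjusted threshold, and Egr3, at the far left, was below background on all 4 ATF3 KO arrays.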

How the data were processed

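RNA of 4 WT and 4 ATF3 KO samples was read on single-colour Agilent arrays, quantified with Agilent Feature Extraction (10.9.1.1 per the file headers; the submitters' processing notes give 10.10). The deposited processed signal is an intensity, and the file headers list statistics of background subtraction and detrending. The deposited table of the series holds log2 values whose normalization is not stated. Every column matched the array it is labelled for (correlation of 0.998 or more with log2 median signal), and the table served as an alternative.

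Control spots and spots flagged as outliers were left out. Spots of a probe were averaged as log2 values, and each array's 75th percentile was subtracted. Probes above background on at least 4 arrays were kept, the brightest per gene standing for it. Names came from RefSeq transcripts (GRCm38.p6), which matched 27235 of 55681 probes. Probes without a match kept the array's own name for their target, and these names count among the genes tested. The array design names another build, so only promoter windows carry coordinates. Genotypes were compared with limma 3.58.1 in R 4.3.3 (lmFit, eBayes, Benjamini-Hochberg over 21247 genes), tested on simulated data first, and with two-sided exact permutation tests. Precision is limited by the number of arrays.

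The members and lists were chosen with earlier results of these data known. Every member is named, and of each other list up to 4 genes with the smallest p. Mafg, Siglech, Itgax, Zbtb46, Ccr2, Cx3cr1, H2-Ab1, H2-Eb1, Cd74 and Itgb3 are named beyond this rule, after their values were seen. A listed gene that the rule would name is not reported here. The replicate numbers are not said to pair the samples and were not used as pairs in the main test. Deviations of same-numbered arrays correlated at −0.27 to 0.19. For replicates 1 and 4 the same-numbered array was the best partner and for replicates 2 and 3 it was not, so these values cannot settle whether samples were paired. The normexp alternative used the median spot signal and median background.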

Additional observations from a re-analysis of the deposited data

Results flagged for a closer look

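Over 22 sets of 4 arrays (11 member probes in each genotype), an array standing apart from the other 3 by the gap to its nearest neighbour was found for 2, and chance flags about 1 in 20 such sets. Jund on WT replicate 4 read 6.13 on the log2 scale, where the next highest WT array read 5.97. Fosl1 on ATF3 KO replicate 3 read −3.96, where the next highest ATF3 KO array read −4.60, and none of the 4 was above background.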

How the results depend on the processing

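In 20 of 21 alternative settings 0 members passed limma's threshold, and with normexp background correction 1 did, Fos (−0.58). Of 168 member differences recomputed, 139 kept their sign and their side of the threshold and 28 changed sign, all of them of Fosb, Fosl2, Jun, Jund or Jdp2, whose values were near 0. With quantile normalization these were −0.021 for Fosb, 0.12 for Fosl2, 0.037 for Jdp2 and 0.13 for Jun; with the percentile over probes above background on all arrays 0.13 for Fosl2, 0.051 for Jdp2 and 0.14 for Jun; with the deposited log2 values 0.07 for Fosl2, 0.083 for Jdp2 and 0.13 for Jun; with median scaling −0.057 for Fosb and −0.069 for Jund; with normexp −0.11 for Jund; and with the mean of kept probes 0.051 for Fosl2. The median of all genes moved as well, from −0.11 to −0.18 with median scaling and to 0.044 with the percentile over probes above background. These 2 scalings moved the differences of the members and of all genes by the same amount, and the members' median relative to all genes stayed at 0.046. The median of the members relative to all genes was −0.097 with normexp and −0.046 with no filter, and −0.0090 to 0.061 with 1 array left out. Leaving out 1 array gave −0.10 to 0.21 for Fosb, −0.095 to 0.062 for Fosl2, −0.084 to 0.052 for Jun, −0.025 to 0.051 for Jund, −0.15 to −0.039 for Jdp2, −0.36 to −0.21 for Batf, −0.62 to −0.45 for Fos and −0.50 to −0.32 for Junb. Fos, Junb and Batf also stayed below the median of all genes in every setting. The count of all genes past the threshold, 95, was 250 with normexp, 31 with quantile normalization, 217 with median scaling, 44 with the percentile over probes above background, 10 with no filter, 42 with a filter of 2 arrays, 192 with trend and robust variances, 148 with array weights, 149 with the deposited log2 values and 58 with every probe tested. The 95 split into 78 higher in ATF3 KO and 17 lower, against 156 and 94 with normexp and 22 and 9 with quantile normalization. The count ran from 9 (without WT replicate 1) to 234 (without ATF3 KO replicate 3) with 1 array left out. With the replicate number as a block it was 72, and 0 members passed. Apart from that shared shift, the causes were not tested. Fosl1 and Maff are limited by their signal at background.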
